A study of Homo sapiens with 9 samples.

Results

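The mitosis and G2/M genes described here are 46 genes whose products carry a cell from late G2 phase through chromosome segregation and cytokinesis. They were chosen by gene name, with earlier results of these data known. Each was read on an Affymetrix expression array by the probe set with the highest mean signal over all arrays. All 46 were found among the 19775 genes with a usable probe set, and all 46 were among the 13792 genes bright enough to be tested. They fall into 8 roles, with 3 cyclins, 6 mitotic kinases, 11 kinetochore and checkpoint genes, 9 kinesins, 4 genes of CDC25 and the anaphase-promoting complex (APC/C), 8 spindle and cytokinesis genes, 2 genes of the chromosomal passenger complex, and 3 genes of chromosomes and transcription.

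The cells were SK-N-AS, a human neuroblastoma line. They received RE-EX1, an expression construct for full-length NRSF (the repressor encoded by REST), or HZ4, a construct for a truncated NRSF, or were untreated. Each of these 3 series has 1 array at 0 h (the baseline control), 1 at 24 h and 1 at 48 h, which makes 9 groups of 1 array. Promoter, delivery and expression level of the constructs are not stated in the labels. The series text mentions triplicates and batches, but no label ties an array to either. Every p-value here thus reflects the spread among the arrays alone, which may be technical. The test used, limma, also pools each gene's spread with that of other genes of similar signal. For changes over time, 4 of 16.5 degrees of freedom come from the gene itself. For changes over time the 3 series served as the repeats of a time point, although their treatments differ. That spread therefore mixes any construct effect with technical differences. The question of the study was how the time points differ from their 0 h controls under each NRSF form.

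Entry into mitosis is driven by CDK1 bound to cyclin A or cyclin B. CDC25 phosphatases switch this kinase on, and WEE1 and the CDK inhibitor p21 hold it back. Kinetochores tie chromosomes to spindle microtubules, and the checkpoint kinases delay anaphase until all are attached. The APC/C with its activator CDC20 then marks securin and the cyclins for destruction. Transcription of most of these genes peaks in G2 and mitosis. It is controlled through promoter elements called CHR (cell cycle genes homology region) and CCAAT, which are read by the DREAM complex, by MYB and FOXM1 factors and by NF-Y. When cells leave the cycle, DREAM represses them together. In tumours such as neuroblastoma their levels are read as a measure of dividing cells.

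Because the members share such elements, the promoters of the 4 members with the largest called falls at 24 h that hold a CHR letter match are shown. Each is the 150 bases that end just before the transcription start in RefSeq (GRCh38.p14), read 5′ to 3′ on the strand of the gene. Capitals mark TTTGAA or TTTAAA, the CHR letters searched, and CCAAT, each on either strand, so that CCAAT on the other strand appears as ATTGG. The stretches are chr5:138178962-138179111 (plus strand) for KIF20A, chr10:128126424-128126573 (minus strand) for MKI67, chr15:69414199-69414348 (plus strand) for KIF23 and chr15:90994536-90994685 (minus strand) for PRC1.
KIF20A: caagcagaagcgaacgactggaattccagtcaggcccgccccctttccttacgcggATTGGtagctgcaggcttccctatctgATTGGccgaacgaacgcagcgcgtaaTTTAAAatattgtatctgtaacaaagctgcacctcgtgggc
MKI67: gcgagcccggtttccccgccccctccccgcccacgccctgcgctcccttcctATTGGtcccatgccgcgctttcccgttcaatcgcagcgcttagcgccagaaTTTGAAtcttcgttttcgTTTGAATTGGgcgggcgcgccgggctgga
KIF23: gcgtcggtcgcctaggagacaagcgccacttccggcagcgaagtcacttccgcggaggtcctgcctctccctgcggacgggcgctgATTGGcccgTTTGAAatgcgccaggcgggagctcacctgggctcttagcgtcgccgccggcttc
PRC1: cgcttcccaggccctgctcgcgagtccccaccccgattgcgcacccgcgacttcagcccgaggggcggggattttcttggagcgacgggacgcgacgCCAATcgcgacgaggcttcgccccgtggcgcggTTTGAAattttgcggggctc

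In KIF20A the CHR match begins 41 bases before the start, with CCAAT matches beginning 94 and 67 bases before it. MKI67 has CHR matches at 47 and 29 bases and CCAAT matches at 98 and 24, of which the inner pair overlaps. KIF23 has a CHR match at 55 bases and CCAAT at 64, and PRC1 has them at 20 and 53. In all 4, a CCAAT match thus lies upstream of a CHR match. RefSeq's promoter table held 48 starts for 39 of the 46 members. AURKA, BUB3, TTK, UBE2C, TPX2, BIRC5 and FOXM1 were not matched.

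Over the 250 bases before a start, 66.7% of the 48 member promoters held a CHR letter match, against 21.9% of all 35116 promoters in the table. TTTGAA was in 50% (13.3% of all), TTTAAA in 29.2% (11.3%) and CCAAT in 75% (32%). A CHR match within 100 bases of the start was found in 50% of member promoters and 8.24% of all. Both elements together were in 56.2% and 7.64%. The CHR and CCAAT matches overlapped in 4.17% and 0.171%. A letter match is a description and not a binding site. Several starts of 1 gene share sequence.

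Across the 9 arrays the median signal was 30.87 to 42.67 and 21.9% to 26.9% of values lay at or below the floor. The truncated 24 h array stood apart. It had the highest median signal, the fewest values at the floor, and the lowest median correlation with the other arrays over all genes (0.909, against 0.921 to 0.931). It was also the array on which 16 of the 46 members had their lowest signal, more than on any other. Results that rest on it are given with and without it. Of the sympathoadrenal markers that fit a neuroblastoma line, GATA3 (signal 1346 to 1912), GATA2, ISL1, DDC, PHOX2A and HAND2 passed the filter, while TH and DBH, the genes of noradrenaline synthesis, did not. No epithelial marker of 6 passed, 1 endothelial of 5 (PECAM1) and 1 Schwann or melanocyte marker of 4 (PMEL). Of 5 blood markers, PTPRC and HBB passed. The summed signal of all 5 was 135 to 171 at 0 h, 155 to 237 at 24 h and 219 to 249 at 48 h, and PTPRC rose at 48 h by 1.05 log2 (limma, adjusted p = 0.0346). CD3E, CD14 and LYZ were at the floor on 5, 4 and 4 of the 9 arrays. In each series this sum was higher at 48 h than at 0 h, while at 24 h it was lower than at 0 h in the full-length series, and its part in the results was not tested.

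At 24 h the mitosis genes were lower than at 0 h in all 3 series. Across series 24 of the 46 fell and 0 rose (limma, Benjamini-Hochberg adjusted p under 0.05 over 13792 genes). Over all genes, 8.26% were called lower and 8.13% higher. The median of the 46 fitted changes was −0.64 log2, against −0.03 over all genes, and 45 of 46 estimates were below 0. At an unadjusted p under 0.05 there were 38 members, against 28.3% of all genes. In 35 of the 46 every 24 h array read lower than every 0 h array, as in 15.5% of all genes. In bulk RNA, fewer cells in G2 or mitosis and less of these RNAs per cell cannot be told apart. Without the truncated 24 h array 18 of the 24 were still called and the median was −0.57. Without the full-length, the truncated or the untreated series the number called was 15, 19 and 17. Fitted without the mean-variance trend, limma called 6 of them. Called in each of these 4 reductions were 12, namely CCNA2, CCNB2, CENPF, KIF2C, KIF20A, ASPM, PRC1, ANLN, DLGAP5, NUSAP1, MKI67 and TOP2A.

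At 48 h the count was again 24 lower and 0 higher, where 3.92% of all genes were called lower and 4.52% higher. The median was −0.58 (all genes −0.01), all 46 estimates were below 0, and 35 had an unadjusted p under 0.05 (22.8% of all genes). The arrays of 34 members did not overlap (14.2% of all genes). Both times share the 0 h arrays, so they are not independent readings. These calls rested more on single series than those at 24 h. Without the full-length series 5 were called, without the untreated series 10 and without the truncated series 16. Without the mean-variance trend 0 were called in limma (30 with an unadjusted p under 0.05), and with no filter on low signals 8. CENPF, KIF20A, ASPM and MKI67 were the 4 that each reduction of arrays kept. Between 24 and 48 h no member was called (limma, 5 with an unadjusted p under 0.05, against 17.9% of all genes), where 1.81% of all genes were called lower and 1.73% higher. Those 5 were CENPE at −0.38 log2, PTTG1 at 0.34, PRC1 at 0.41, DLGAP5 at 0.46 and FOXM1 at 0.46, each with an adjusted p of 0.134 or more.

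**Figure D1:**
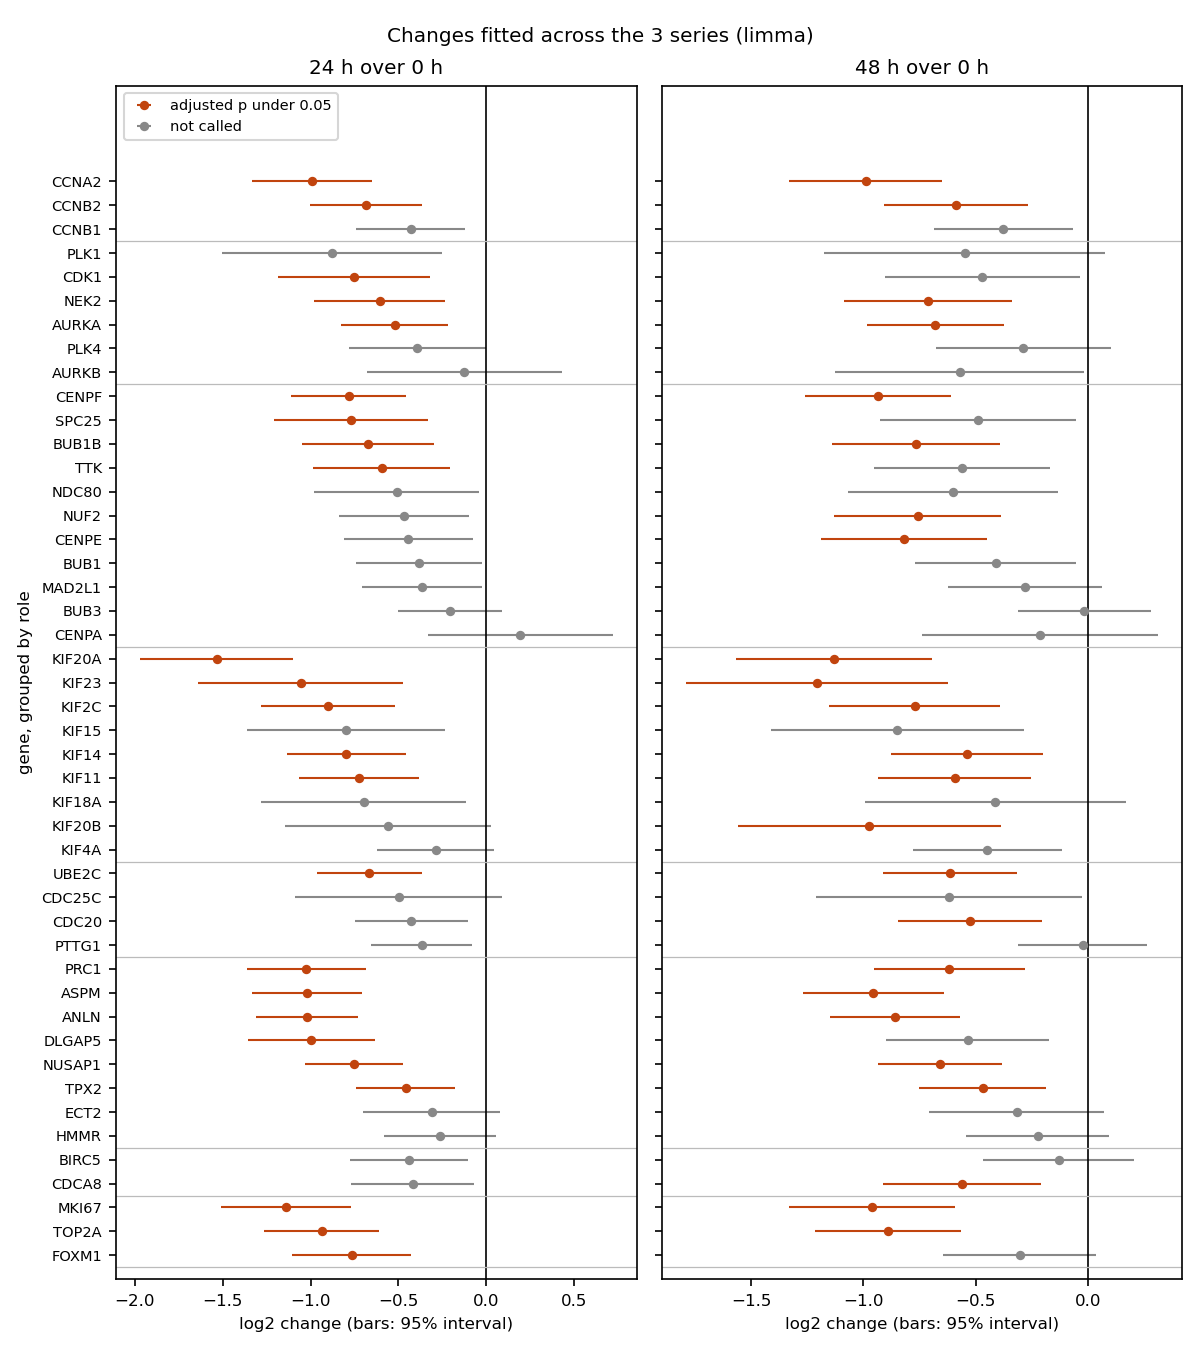
Fitted log2 change of each of the 46 genes at 24 h (left) and 48 h (right) over 0 h, with 95% intervals from limma over the 9 arrays. Orange points have an adjusted p under 0.05, and grey lines separate the 8 roles; all points but CENPA at 24 h lie left of 0.

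Cyclins are the regulatory partners that give CDK1 its timing. CCNA2 encodes cyclin A2, which acts from S phase into early mitosis. Its signal on the full-length, truncated and untreated arrays was 2095, 1479 and 1949 at 0 h, 1012, 733 and 1034 at 24 h, and 764, 933 and 1080.4 at 48 h. Every later array was below every 0 h array. It fell by 0.99 ± 0.16 log2 (standard error, here and below) at 24 h (limma, adjusted p = 0.000552) and by 0.99 at 48 h (adjusted p = 0.00134), about 1.99-fold each time. Without the full-length series the 48 h change was −0.76 (adjusted p = 0.0556).

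CCNB2, the cyclin B2 gene, read 1374, 1337 and 1437 at 0 h, 859, 761 and 974 at 24 h, and 731, 923 and 1152 at 48 h. The times did not overlap with 0 h here either, and it fell by 0.68 and 0.59 log2 (adjusted p = 0.00499 and 0.0232). The 48 h call was lost when any 1 of the 3 series was left out, with −0.43 (adjusted p = 0.238) without the full-length one. CCNB1, which encodes cyclin B1, the main partner of CDK1 at mitotic entry, read 2140.3, 1884 and 1726 at 0 h, 1486, 1322 and 1447 at 24 h, and 1291, 1484 and 1656 at 48 h. Its arrays did not overlap either, but its changes of −0.43 and −0.38 were not called (adjusted p = 0.0552 and 0.126). A second, dimmer CCNB1 probe set changed by −1.52 and −0.92, lower in 3 of 3 series at both times. With the mean of a gene's probe sets CCNB1 was called at 24 h (−0.98), and CCNB2 was not (−0.16, adjusted p = 0.767). The other CCNB2 probe sets were dim.

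**Figure D2:**
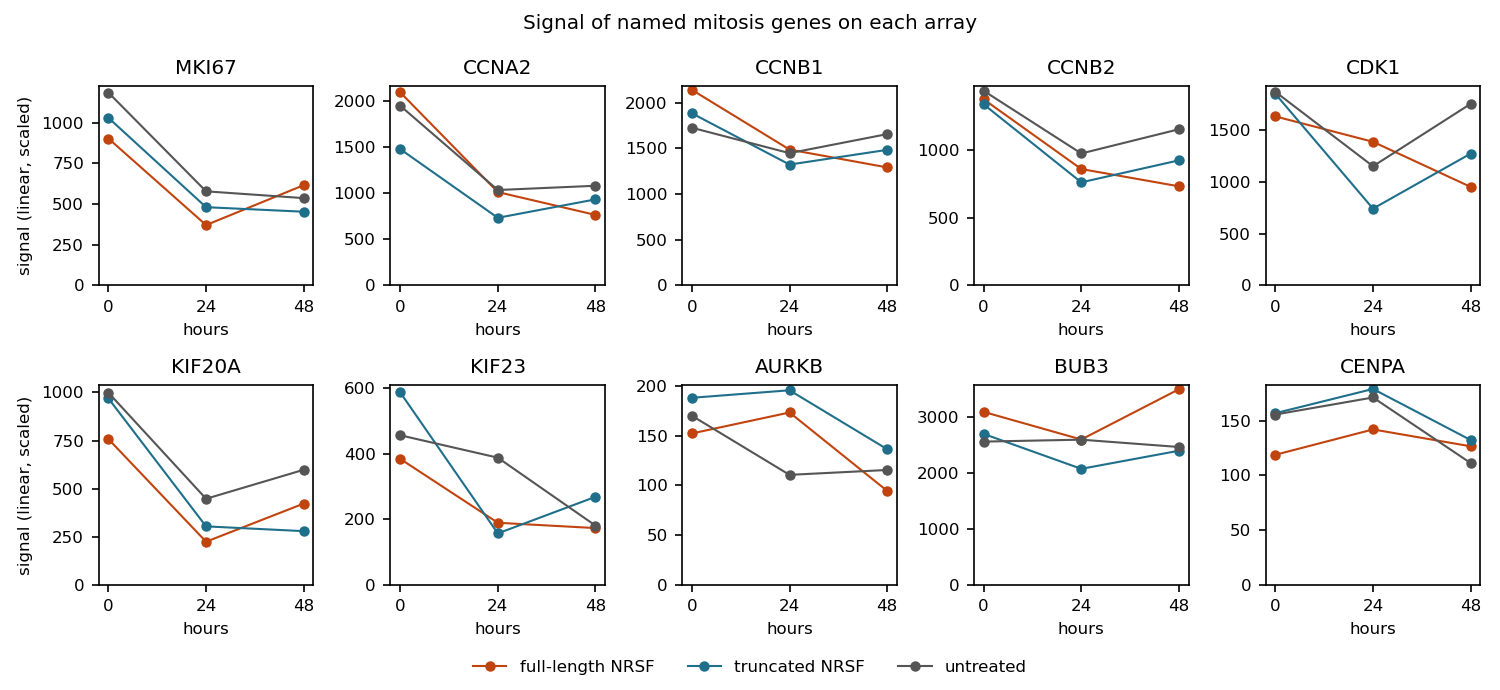
Linear signal (authors' scaling) of 10 of the genes on each of the 9 arrays, by hours; each line joins the 3 arrays of 1 series, and every axis starts at 0. MKI67, CCNA2 and KIF20A lie lower at 24 and 48 h in each series, while BUB3 and CENPA show no common fall.

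Mitotic kinases start and order the events of mitosis. CDK1, the master kinase of mitotic entry, read 1633, 1851 and 1870.3 at 0 h, 1387, 741 and 1151 at 24 h, and 952, 1273 and 1754 at 48 h. The lowest signal was that of the truncated 24 h array, and at 48 h the untreated array had come back into the 0 h range. It fell by 0.75 ± 0.20 log2 at 24 h (adjusted p = 0.0187) and was at −0.47 at 48 h (adjusted p = 0.177). Without the truncated 24 h array its 24 h change was −0.48 (adjusted p = 0.156), and without the truncated series −0.47 (0.198). It was also not called without the untreated series (adjusted p = 0.0547).

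AURKA, the Aurora kinase of centrosomes and spindle poles, read 1142, 1106 and 1114 at 0 h, 737, 844 and 764 at 24 h, and 678, 648 and 781 at 48 h. Its 0 h arrays lay close together, and it fell by 0.52 and 0.68 log2 (adjusted p = 0.02 and 0.00816). The call at 24 h was lost without the full-length series (−0.47, adjusted p = 0.161) and without the untreated series, and that at 48 h without the full-length series (−0.64, 0.115). NEK2, a kinase of centrosome separation, fell by 0.61 and 0.71 (adjusted p = 0.0265 and 0.0196), and leaving out any series, or the truncated 24 h array, ended its 24 h call. At 48 h it was not called without the full-length or the untreated series (0.202 and 0.0606). AURKB, the kinase of the chromosomal passenger complex, read 152, 188 and 169.9 at 0 h, 173, 196 and 110.5 at 24 h, and 94.3, 136 and 115 at 48 h. At 24 h it was higher in both construct series and lower in the untreated one, and its fitted change was −0.13 ± 0.26 (adjusted p = 0.81). At 48 h it was lower in all 3 (−0.57, adjusted p = 0.204). Its second, dimmer probe set was lower in 3 of 3 series at both times, by 1.04 and 1.54 on the log2 scale.

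PLK1, the Polo kinase that acts from centrosome maturation to cytokinesis, read 255, 345 and 295 at 0 h, 208, 82.4 and 244 at 24 h, and 169, 172 and 286 at 48 h. The truncated 24 h array was the low one, at −2.07 log2 from its 0 h array. The fitted change of −0.88 was not called (adjusted p = 0.0533), and without that array it was −0.40 (0.386). PLK4, the kinase of centriole duplication, was at −0.39 and −0.29 (adjusted p = 0.176 and 0.389). A dimmer PLK4 probe set was at −0.39 and −0.82, lower in 3 of 3 series at both times. Its dimmest set was at 0.84 and 0.41, lower in 0 of 3 series at both times. Of the 6 kinases 3 fell at 24 h and 2 at 48 h, with medians of −0.56 and −0.56 log2.

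Kinetochore and checkpoint genes were the largest class. Of 11, 4 fell at 24 h (BUB1B, TTK, CENPF and SPC25) and 4 at 48 h (BUB1B, CENPE, CENPF and NUF2), with medians of −0.47 and −0.56. Over all genes 8.26% were called lower at 24 h and 3.92% at 48 h. CENPF, a kinetochore protein that accumulates in G2, read 1507, 1618 and 2100.0 at 0 h, 892, 1063 and 1062 at 24 h, and 999, 878 and 836 at 48 h. Each later array read below each 0 h array, and it fell by 0.78 and 0.93 log2 (adjusted p = 0.00251 and 0.00155). BUB1B encodes BUBR1, which holds back the APC/C. It fell by 0.67 and 0.77 (adjusted p = 0.0153 and 0.0137), and lost both calls without the full-length series (adjusted p = 0.133 and 0.117) and without the untreated series. TTK, the MPS1 checkpoint kinase, fell by 0.60 at 24 h (adjusted p = 0.0364), and leaving out any series or the truncated 24 h array ended that call.

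The NDC80 complex is the part of the kinetochore that grips microtubules. Its subunit genes differed in their calls. SPC25 fell by 0.77 at 24 h (adjusted p = 0.0174) and was at −0.58 without the truncated 24 h array (0.111), nor was it called without the full-length or the truncated series. NUF2 fell by 0.76 at 48 h (adjusted p = 0.0136), but not without the full-length (−0.70, 0.164) or the untreated series (0.0668). NDC80 itself was at −0.51 and −0.60 (adjusted p = 0.137 and 0.107), with signals of 388, 621 and 532 at 0 h, 341, 262 and 498 at 24 h, and 219, 372 and 451 at 48 h, so its times overlapped. CENPE, the kinesin that carries chromosomes to the spindle equator, was at −0.44 at 24 h (adjusted p = 0.1) and fell by 0.82 at 48 h (0.00826). Without the full-length or the untreated series the 48 h call was lost (adjusted p = 0.0643 and 0.103).

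BUB1, MAD2L1 and BUB3, all of the checkpoint, did not pass at either time by their brightest probe sets. BUB1, the kinase that places BUBR1 at kinetochores, was at −0.38 and −0.41. MAD2L1, which encodes the MAD2 inhibitor of CDC20, was at −0.37 and −0.28. BUB3, a partner of BUB1 and BUBR1, read 3086, 2693 and 2555 at 0 h, 2592, 2069 and 2589.7 at 24 h, and 3491, 2392 and 2459 at 48 h. Its times overlapped, and its changes were −0.20 ± 0.14 (adjusted p = 0.379) and −0.02. Other probe sets of these genes read differently. The dimmer MAD2L1 sets were lower in 3 of 3 series at both times. With the mean of a gene's probe sets limma called MAD2L1 (−0.74, adjusted p = 0.0105) and BUB3 (−0.58, 0.0339) at 24 h. The BUB3 mean includes a dim set at −2.01. Another bright BUB3 set was at −0.28 and −0.93, lower in 3 of 3 series at both times. Further bright ones were at −0.26 and −0.05, and at 0.07 and −0.23. BUB1 was not called with the mean of its probe sets (−0.11, 0.879), and at 48 h none of these genes was. CENPA, the histone H3 variant of centromeres, read 119, 157 and 155 at 0 h, 142, 179 and 171 at 24 h, and 126, 132 and 111 at 48 h. It was higher at 24 h in each series, at 0.20 ± 0.25 log2 (adjusted p = 0.669), with a 95% interval of −0.33 to 0.72, and stood at −0.21 at 48 h. BUB3 and CENPA are read by probe sets whose identifiers mark possible cross-hybridization (_x_at), as are PTTG1 and FOXM1, so these 4 are uncertain.

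Kinesins are the motors that build the spindle and drive cytokinesis. Of 9, 5 fell at 24 h (KIF2C, KIF11, KIF14, KIF20A and KIF23) and 6 at 48 h (these and KIF20B), with medians of −0.80 and −0.77. KIF20A encodes MKLP2, which carries the passenger complex to the midzone. It read 757, 969 and 999 at 0 h, 223, 303 and 447 at 24 h, and 422, 278 and 598 at 48 h. Every later array was below every 0 h array. It had the lowest estimate of the 46 at 24 h, a fall of 1.53 ± 0.21 log2 or 2.90-fold (adjusted p = 0.000106), and fell by 1.13 at 48 h (0.00316). Its promoter is the one above with TTTAAA and a pair of CCAAT matches.

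KIF23 encodes MKLP1, the motor of the centralspindlin complex. It read 384, 587 and 456 at 0 h, 189, 156 and 387 at 24 h, and 172, 268 and 180.1 at 48 h. At 24 h the untreated array lay above the full-length 0 h array, and only the 48 h arrays were all below 0 h. It fell by 1.06 ± 0.28 log2 at 24 h (adjusted p = 0.0148) and by 1.21 at 48 h (0.0126). Without the truncated 24 h array the first was −0.61 (adjusted p = 0.128), and without the truncated series −0.63 (0.143). Without the full-length series neither time was called (adjusted p = 0.133 and 0.146).

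KIF2C, a microtubule depolymerase of centromeres, read 521, 916 and 668 at 0 h, 334, 363 and 405 at 24 h, and 324, 399 and 496 at 48 h. These times did not overlap with 0 h, and it fell by 0.90 and 0.77 log2 (adjusted p = 0.00278 and 0.0146). The 48 h call was lost without the full-length or the truncated series (adjusted p = 0.113 each). KIF11, the Eg5 motor that pushes spindle poles apart, fell by 0.72 and 0.59 (adjusted p = 0.00535 and 0.0315). KIF14, a motor of cytokinesis, fell by 0.80 and 0.54 (0.00278 and 0.0462). KIF11 was not called at 24 h without the full-length series, nor KIF14 without the untreated series, and at 48 h both lost their call when any 1 series was left out.

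In a pair of kinesins the series disagreed. KIF18A, which dampens chromosome movement, read 410.1, 217 and 296 at 0 h, 138, 205 and 218 at 24 h, and 307, 217 and 168 at 48 h. Its change at 24 h was −1.57 in the full-length series and −0.08 in the truncated series, and it was not called (adjusted p = 0.1). KIF20B, another motor of cytokinesis, read 326, 336 and 436 at 0 h, 369, 189 and 215 at 24 h, and 211, 251 and 119 at 48 h. It was higher at 24 h in the full-length series only (0.18 log2). Its fall at 48 h, 0.97 (adjusted p = 0.0383), was −0.52 without the untreated series (0.377) and was not called without the full-length series (0.131). KIF15, an Eg5-like motor, was at −0.80 and −0.85 (adjusted p = 0.0502 and 0.0591). KIF4A, a motor bound to chromosomes, was at −0.29 and −0.45 (0.254 and 0.0906).

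**Figure D3:**
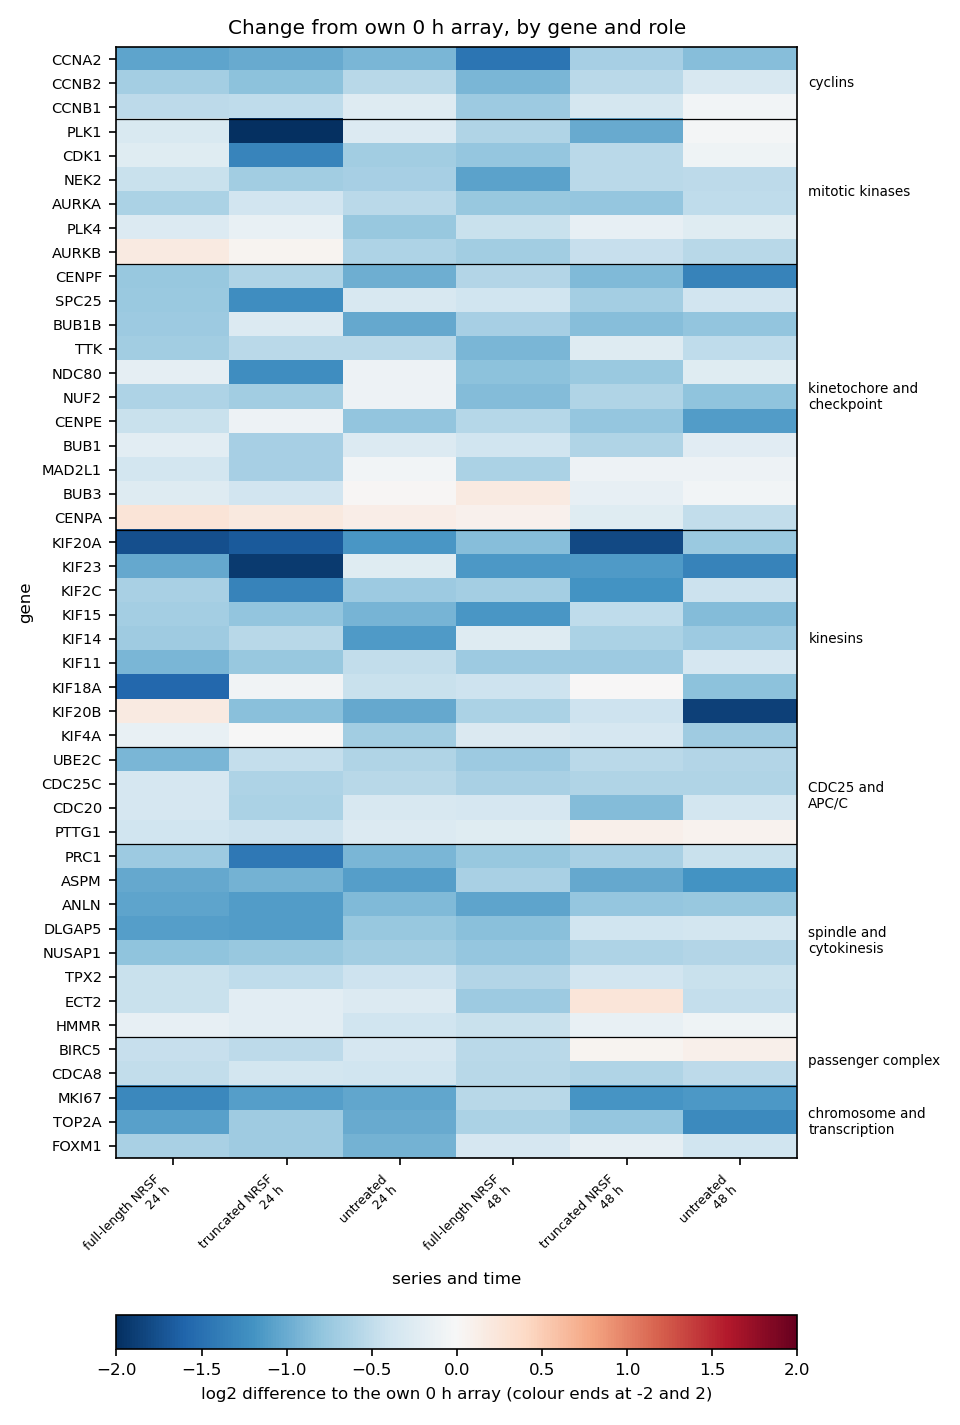
Log2 difference of each of the 46 genes (rows, by role) from the 0 h array of its own series, at 24 h and 48 h (columns); blue is lower, red higher, and the colour scale ends at −2 and 2. Most cells are blue in all 6 columns, with PLK1 and KIF23 darkest in the truncated 24 h column.

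CDC25 and APC/C genes act at entry into and exit from mitosis. UBE2C, which encodes the ubiquitin-conjugating enzyme of the APC/C, read 1553, 1199 and 1508 at 0 h, 820.1, 861 and 998 at 24 h, and 941, 829 and 1004 at 48 h. All later arrays were below those at 0 h, and it fell by 0.66 and 0.61 log2 (adjusted p = 0.00389 and 0.0128). Both calls were lost without the full-length series (adjusted p = 0.0841 and 0.126), and the 48 h call without the untreated series (0.0838). CDC20, the APC/C activator of anaphase, was at −0.43 at 24 h (adjusted p = 0.0685) and fell by 0.52 at 48 h (0.0421), a call lost when any 1 series was left out.

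CDC25C, a phosphatase that switches CDK1 on, read 132, 146 and 139 at 0 h, 105, 95.5 and 94.95 at 24 h, and 84.4, 95.9 and 91.8 at 48 h. Its later arrays were all below those at 0 h, but the changes of −0.50 ± 0.28 and −0.62 ± 0.28 were not called (adjusted p = 0.265 and 0.195). A second CDC25C probe set was higher at 24 h. PTTG1, the securin gene, was at −0.37 at 24 h (adjusted p = 0.0764) and at −0.02 at 48 h, where it was above 0 h in the truncated and untreated series.

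Spindle and cytokinesis genes had 6 of 8 members called at 24 h and 5 at 48 h, with medians of −0.87 and −0.58. ASPM, a spindle pole protein, read 1273, 1501 and 2145 at 0 h, 626, 783 and 1002 at 24 h, and 812, 741 and 934 at 48 h. ANLN, the anillin of the contractile ring, read 2161, 1988 and 2030.5 at 0 h, 1037, 918 and 1100.4 at 24 h, and 1041, 1168 and 1204 at 48 h. PRC1, which bundles midzone microtubules, read 1801, 2041 and 1992 at 0 h, 1088, 759 and 1054 at 24 h, and 1065, 1301 and 1463 at 48 h. For these 3 genes each later array was below each 0 h array.

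ASPM fell by 1.02 ± 0.15 log2 at 24 h (adjusted p = 0.000208) and 0.96 at 48 h (0.000965). ANLN fell by 1.02 ± 0.14 (adjusted p = 0.000105) and 0.86 (0.00114). PRC1 fell by 1.02 ± 0.16 (adjusted p = 0.000401) and 0.62 (0.0244). At 48 h ANLN was not called without the full-length series (−0.76, adjusted p = 0.0519), and PRC1 lost its call when any 1 series was left out. DLGAP5, a spindle protein regulated by Aurora A, fell by 1.00 at 24 h (adjusted p = 0.000888) and was at −0.54 at 48 h (0.0641). NUSAP1, which binds spindle microtubules near chromosomes, fell by 0.75 and 0.66 (adjusted p = 0.000972 and 0.00558), the second not without the full-length series (0.0989).

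TPX2, the activator of Aurora A on the spindle, fell by 0.46 and 0.47 (adjusted p = 0.027 and 0.0398), and both calls were lost when any 1 series was left out. ECT2, which starts furrowing through RhoA, was at −0.31 and −0.32, and HMMR, a spindle and hyaluronan-binding protein, at −0.26 and −0.22, with adjusted p of 0.282 or more in each case. Of the passenger complex, BIRC5 (survivin) was at −0.44 and −0.13 (adjusted p = 0.0708 and 0.684). CDCA8 (borealin) was at −0.42 (0.104) and fell by 0.56 at 48 h (0.0474), which leaving out any series ended.

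MKI67 encodes Ki-67, which coats mitotic chromosomes and is the standard marker of dividing cells. It read 903, 1031 and 1186 at 0 h, 371, 481 and 578 at 24 h, and 616, 453 and 537 at 48 h. No later array reached the 0 h range. It fell by 1.14 ± 0.17 log2 or 2.20-fold at 24 h (adjusted p = 0.000349) and by 0.96 at 48 h (0.00313). Its other 3 probe sets were lower in 3 of 3 series at both times, by 0.56 to 1.05 on the log2 scale. The MKI67 promoter above is the one with overlapping elements.

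TOP2A, the topoisomerase that untangles sister chromatids, read 2622, 2781 and 3302 at 0 h, 1233, 1695 and 1642 at 24 h, and 1689.7, 1631 and 1373 at 48 h. It fell by 0.94 and 0.89 log2 (adjusted p = 0.000624 and 0.00221), the second not without the untreated series (0.0511). FOXM1, a transcription factor of the G2/M genes, read 618, 502 and 604 at 0 h, 396, 308 and 312 at 24 h, and 490.1, 443 and 459 at 48 h. It fell by 0.77 at 24 h (adjusted p = 0.00371; 0.0553 without the untreated series) and stood at −0.30 at 48 h (0.278). At 48 h its arrays lay between those of 24 h and those of 0 h.

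Roles were not tested against each other. Each gene was given 1 role, so AURKB counts with the kinases and not the passenger complex, and CENPE with the kinetochore genes and not the kinesins. Their medians at 24 h ran from −0.43 for the 2 passenger complex genes and −0.46 for the 4 CDC25 and APC/C genes to −0.87 for spindle and cytokinesis genes and −0.94 for MKI67, TOP2A and FOXM1, with cyclins at −0.68. At 48 h they ran from −0.35 (passenger complex) to −0.89 (MKI67, TOP2A and FOXM1), with cyclins at −0.59 and CDC25 and APC/C genes at −0.57. Within each role of over 3 genes some members passed the test and others did not, where 8.26% of all genes were called lower at 24 h and 3.92% at 48 h. Members with a CHR letter match had a median of −0.75 at 24 h and 16 of 29 were called. Those without one had −0.49 and 3 of 10, namely CCNA2, KIF2C and NEK2. Among the 29 was CENPA, whose estimate was above 0. Of the members with no promoter entry, AURKA, TTK, UBE2C, TPX2 and FOXM1 were called at 24 h, and BUB3 and BIRC5 were not. Only TTTGAA and TTTAAA were searched, so a CHR of other letters counts as no match. Whether match and fall are linked was not tested.

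Of the 94 usable probe sets of the members, 88 were above the filter. Of these, 80 were lower at 24 h and 85 at 48 h in the mean over series. Among 24 members with more than 1 such probe set, all sets were lower at 24 h in 18 and at 48 h in 21. Probe sets of BUB1, BUB3, CDC25C, CDK1, ECT2 and PLK4 disagreed in sign at 24 h. For CDK1 the 3 brighter sets were lower at both times and only the dimmest set was at 0.05 at 24 h.

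In the untreated series, which received no construct, the 46 genes were lower too. With 1 array per group these differences have no replicate check. Their median at 24 h was −0.62 log2 with full-length NRSF, −0.67 with truncated NRSF and −0.58 without a construct. At 48 h it was −0.65, −0.60 and −0.51. Over all genes these medians lay between −0.05 and 0.02. Lower were 43, 44 and 44 of the 46 at 24 h (51.6%, 49.1% and 53% of all genes) and 44, 42 and 44 at 48 h (53.3%, 49.4% and 48.6%). In 42 members all 3 series were lower at 24 h (24.4% of all genes), in 40 at 48 h (22.4%), and in 38 all 6 differences were below 0 (13.1%).

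The falls were common but mostly under 2-fold. At 24 h, 9, 12 and 7 members were 2-fold or more lower with full-length NRSF, with truncated NRSF and without a construct, against 10.1%, 11.9% and 9.94% of all genes. At 48 h there were 5, 6 and 7 (10.7%, 9.5% and 9.37%). No member was 2-fold higher in any of the 6 differences. At 0 h no member differed 2-fold between any pair of series, while 15%, 14.9% and 13.2% of all genes did. The members' median absolute difference between 0 h arrays was 0.17 to 0.23 log2, against 0.30 to 0.34 over all genes, which include many dim ones.

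**Figure D4:**
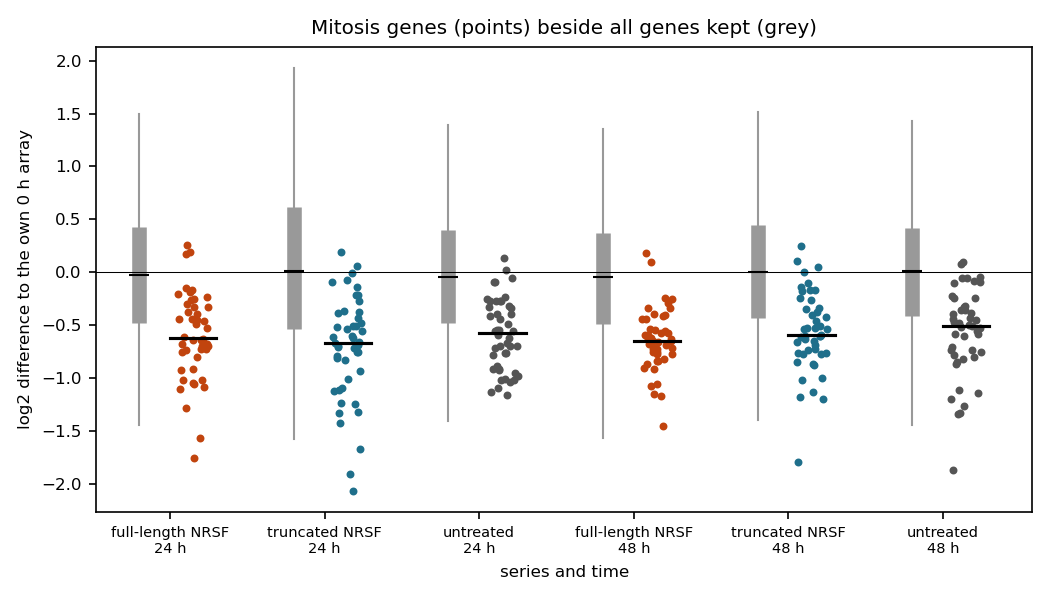
Log2 difference from the own 0 h array for the 46 genes (points, with the black bar at their median) beside all 13792 genes kept (grey box, quartiles; grey line, 5th to 95th percentile; black tick, median). In each of the 6 differences the median of the points lies below the lower quartile of all genes, between −0.67 and −0.51.

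Whether a construct changed these genes beyond the untreated course was asked with a model that adds a term for each construct after 0 h. No member was called for full-length over untreated, truncated over untreated or full-length over truncated. Over all genes 0.00725%, 0.0363% and 0.0145% were called. At an unadjusted p under 0.05 there were 1, 1 and 0 members (limma), against 4.13%, 7.63% and 6.2% of all genes. The medians were −0.10, −0.04 and −0.07 log2, and 31, 27 and 28 of the 46 estimates were below 0 (50.4%, 49.1% and 50.9% of all genes). The model has 2 residual degrees of freedom, and its intervals are wide. For CCNA2 the full-length effect was −0.37 log2, with a 95% interval of −1.07 to 0.33, so that differences of about 2-fold are within it.

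The member that passed the unadjusted threshold for full-length NRSF was KIF20B, at 1.22 log2 (95% interval 0.12 to 2.32, limma, adjusted p = 1). Its untreated 48 h array was the low one. For truncated NRSF it was PLK1, at −1.38 (−2.52 to −0.24, adjusted p = 0.521), with its lowest signal on the truncated 24 h array. PLK1 was also the member with the highest estimate for full-length over truncated, 1.09 (adjusted p = 0.819). A p that misses the threshold does not show that the constructs act alike.

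Other genes of the same pathway were read from 6 lists. Of 53 other mitosis and G2/M genes, 19 fell and 0 rose at 24 h (median −0.44), and 15 fell and 0 rose at 48 h (−0.47). Among all genes 8.26% were called lower at 24 h and 3.92% at 48 h. TACC3, a spindle stabiliser, was at −1.34 (adjusted p = 0.00844), SPAG5, which holds spindle poles together, at −1.20 (0.0156), and NCAPH, a condensin subunit, at −0.96 (0.00743). TACC3 read 325, 453 and 339 at 0 h, 157, 71.5 and 272 at 24 h, and 173, 184 and 213 at 48 h. Its lowest signal was again on the truncated 24 h array. Without that array 7 of the 53 were called at 24 h, TACC3 was at −0.77 (adjusted p = 0.0592) and SPAG5 at −0.64 (0.126). Without the full-length series 5 were called at 24 h and 1 at 48 h, without the untreated series 9 and 6, and without the truncated series 7 and 10. NCAPH was not called without the untreated series (adjusted p = 0.0752).

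Genes of DNA replication and S phase, the part of the cycle before G2, were lower as well. Of 35, 16 fell and 0 rose at 24 h (median −0.53), and 7 fell at 48 h (−0.36), against 8.26% and 3.92% of all genes called lower. POLD1, the catalytic subunit of DNA polymerase delta, read 138, 219 and 186 at 0 h, 33.7, 72.8 and 85.5 at 24 h, and 80.0, 50.8 and 39.8 at 48 h, and fell by 1.58 at 24 h (adjusted p = 0.0133). Each later POLD1 array was below each 0 h array. CDC7, the kinase that fires replication origins, fell by 1.06 (adjusted p = 0.00012), and FEN1, the flap endonuclease of Okazaki fragments, by 1.06 (0.00654). Without the truncated 24 h array 8 were called at 24 h and FEN1 was at −0.67 (0.0609). Leaving out the full-length, truncated or untreated series gave 6, 6 and 11 calls at 24 h and 1, 4 and 2 at 48 h, with POLD1 not called at 24 h without the full-length (0.0735) or the truncated series (0.0618).

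CDK inhibitors and CDK1-inhibiting kinases were read in a list that also held GADD45A, GADD45B, SFN, CHEK1 and CHEK2. Of its 12 genes 4 rose and 0 fell at 24 h (median 0.34, estimates from −1.05 to 2.18), where 8.13% of all genes were called higher. CDKN1A, the p21 gene, read 218, 221 and 129 at 0 h, 939, 871 and 708 at 24 h, and 315, 222 and 347 at 48 h. All 24 h arrays were above all others. It rose by 2.18 ± 0.22 log2 at 24 h (adjusted p = 6.94e-06), and at 48 h it was at 0.65 (0.081) after a fall of 1.52 from 24 h. GADD45B and GADD45A, stress genes whose proteins hold back the CDK1 complex, rose by 2.10 and 1.48 (adjusted p = 0.000404 and 4.15e-06). WEE1, which inhibits CDK1 directly, rose by 0.73 (0.00443; 0.0694 without the full-length and 0.0522 without the truncated series). At 48 h only GADD45B was called (1.25, adjusted p = 0.0262), and not without the full-length series. CDKN1A was called lower at 48 h than at 24 h. Of the 46 mitosis genes none was called in either direction, and their median change from 24 to 48 h was 0.05 log2. How these courses relate was not tested.

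The remaining lists had few calls. The shares of all genes called were 8.26% lower and 8.13% higher at 24 h, and 3.92% and 4.52% at 48 h. Of 20 DREAM, MYB and E2F factors 3 fell and 2 rose at 24 h (median −0.01). LIN37, a subunit of DREAM, was at 0.95 (adjusted p = 0.0089). MYBL2, which activates G2/M genes with the same core complex, was at −0.77 (0.0203), and E2F2, an activator of S phase genes, at −0.75 (0.045). Without the truncated 24 h array 1 factor fell and 1 rose, and MYBL2 was at −0.54 (0.142). E2F2 was called in none of the 4 reductions, and LIN37 was lost without the full-length (0.0815) or the untreated series (0.0625). A further list held APC/C subunits and the regulators FZR1, UBE2S and FBXO5. Of its 16 genes 3 fell at 24 h (ANAPC15 at −0.83, ANAPC4 at −0.67 and ANAPC5 at −0.51). At 48 h 0 fell, and CDC26 was called higher at 0.77. Without the full-length series 0 of these 16 genes were called lower at 24 h, and in the other reductions 1 or 2. Of 11 cohesin genes, which hold sister chromatids together, 0 fell and 2 rose at 24 h. These were WAPL, the cohesin release factor, at 0.72 (adjusted p = 0.00356), and NIPBL, the cohesin loader, at 0.50 (0.0249), and neither was called without the full-length series (0.0812 and 0.125).

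**Figure D5:**
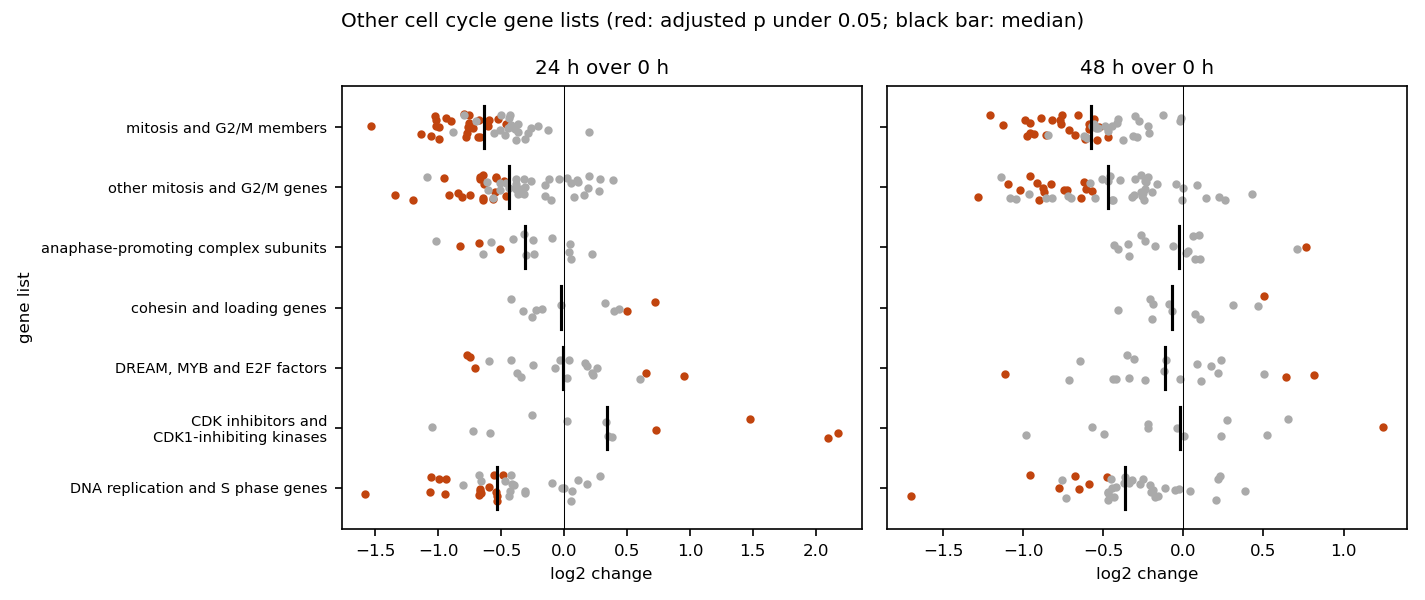
Fitted log2 changes at 24 h (left) and 48 h (right) over 0 h for the 46 genes and the 6 other cell cycle lists; each point is 1 gene, red points have an adjusted p under 0.05 in limma, and black bars are medians. The medians of the mitosis, other mitosis and S phase lists lie left of 0, though each list has a point right of it at 24 h. CDKN1A and GADD45B lie farthest right at 24 h.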

How the data were processed

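RNA of SK-N-AS cells was read on 9 Affymetrix arrays. The authors deposited 1 linear intensity (signal) for each probe set on each array. They used GCOS, per the submitters' processing notes; version: not given in the sources used here. Without the lowest and highest 2% of values the arrays had a mean of 150.017 to 150.02, so they came scaled to a common level, and nothing was rescaled. Signals under the 25th percentile (8.266) were raised to it before log2 was taken. Of 54675 probe sets (62 controls), 41091 match 1 gene symbol in the annotation given for the platform, 41037 of them by Entrez ID. Those with several genes (1801) or none listed (11721) were left out. The brightest probe set stood for each of 19775 genes, and 13792 with a mean log2 above 4.2 (the 40th percentile) were kept, of which 902 are read by a probe set marked _x_at for cross-hybridization.

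Tests used limma 3.58.1 in R 4.3.3 (package data.table, version 1.17.8), with lmFit, eBayes and a variance trend, two-sided, adjusted by Benjamini-Hochberg over all genes kept. The time model held series and time (4 residual degrees of freedom, 16.5 with the trend), and the exposure model added each construct after 0 h (2, or 16.2). The latter are changes of the effect between 24 and 48 h, not replicates. Both were run on simulated data with known changes and independent noise, and of the exposure model only truncated over untreated was checked. This checked the code, not the calls in these data. The number of arrays limits the precision. The members and lists were chosen with earlier results of these data known. Named with all array values were MKI67, the cyclins, CDK1, the 3 members with the largest fall and the 3 with the smallest or a positive change at 24 h. Values per array of other members were added after they were seen. Of each other list, the 3 largest called changes and CDKN1A were named, and WEE1, CDC26 and GADD45B at 48 h were added after their values were seen. Alternatives were other floors, filters, scalings, probe sets and variance models, no series term, and arrays or series left out. For the 6 other lists these reductions and quantile normalization were chosen after seeing the data.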

Additional observations from a re-analysis of the deposited data

How the results depend on the processing

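No paired analysis by replicate number was possible because the labels give none; the series served as the block, and without it (no replicate block) 23 members were called lower at 24 h and 20 at 48 h. Of the 24 calls at each time, all were kept with the floor at the 40th percentile or the filter at the 60th, and 24 and 22 under quantile normalization. Over all alternatives, 6 of 24 calls at 24 h and 0 of 24 at 48 h held in each, and leaving aside the fit without a variance trend, 10 and 1. That fit called 6 at 24 h (KIF20A, ASPM, ANLN, DLGAP5, NUSAP1 and MKI67) and 0 at 48 h, where 30 had an unadjusted p under 0.05. With no filter 8 were called at 48 h. Probe sets whose identifiers carry none of the marks _x_, _s_ and _a_, a stricter choice than the _x_ mark used in the report, measured 34 members, some by dimmer sets. They gave 15 calls at 48 h, 1 call lower at 48 h over 24 h (ASPM, −0.92, adjusted p = 0.0405), 29 lower in the truncated series at 24 h, and 24 h medians of −0.74 over members, −0.99 for cyclins, −0.63 for 10 of 11 kinetochore genes and −0.75 for 5 of 8 spindle genes. Of some roles they left 1 gene, with UBE2C at −0.66, BIRC5 at −0.31 and TOP2A at −1.19 at 24 h. At 48 h they gave −0.92 for cyclins and BIRC5 at −0.078. Series medians with them were −0.69, −0.73 and −0.70 at 24 h (full-length, truncated, untreated) and −0.77 at 48 h with full-length NRSF. The mean of all probe sets gave −0.72 and −0.65 for kinesins at 24 and 48 h, −0.79 for spindle genes at 24 h, −0.37 for CDC25 and APC/C genes and −0.58 for the full-length series at 48 h. Signs turned for PLK4 (0.021) and CDC25C (0.17) at 24 h with that mean, ECT2 at 24 h (0.51) and BUB3 at 48 h (0.065) with unmarked probe sets, PTTG1 and BIRC5 at 48 h without the full-length series, BUB3 at 48 h without the truncated or the untreated series, and AURKB at 24 h without the untreated series; none of these was called in the main analysis. With the truncated 24 h array or 1 series left out, calls ran from 15 to 19 at 24 h and from 5 to 27 at 48 h. At 24 h the median ran from −0.64 to −0.57 over members, −0.86 to −0.71 for kinesins and −0.88 to −0.79 for spindle genes, and AURKB from −0.28 to 0.12. At 48 h it ran from −0.59 to −0.49 for kinetochore genes, −0.77 to −0.62 for kinesins and −0.62 to −0.49 for CDC25 and APC/C genes, BUB3 from −0.11 to 0.061, PTTG1 from −0.087 to 0.089 and BIRC5 from −0.24 to 0.073. The causes were not tested.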
